A study of Mus musculus with 4 samples.

Results

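The genes described here build cholesterol from acetyl-CoA, sense the sterol content of the cell, or esterify, move and export cholesterol. They were chosen by name as a list of 30 genes, and 27 of them matched an entry among the 21827 gene entries of the table. Hmgcs1, Tm7sf2 and Srebf2 matched no entry by symbol, older symbol or accession and were not analysed here. Sc4mol is the older name of Msmo1. All 27 could be compared between the sexes, and all 27 carried the authors' flag for liver expression, set where log2 RPKM reached at least 1 in male or female liver (RPKM is reads scaled by transcript length and library depth).

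The study compared liver of untreated male and female CD-1 mice, an outbred stock, at 8 weeks of age. RNA of 12 livers per sex was combined into 2 pools of 6 livers, and poly-A-enriched RNA of the 4 pools was sequenced with strand information kept. The table gives 1 level per gene and sex, so the spread between pools could not be computed here, and ratios and adjusted p-values are those of the authors' deposited table. No treatment, diet change or time of tissue collection is named in the labels. A gene is said to be called, or higher in a sex, where it could be compared and the authors' adjusted p was under 0.05. Entries at the lowest value of the scale in both sexes were not compared. There were 6590 of them, and in sorting the entries they were taken to share 1 adjusted p. One of them, 5830462I19Rik, carried an adjusted p of 0.026 at a log2 ratio of 0, for a reason the labels do not give. An adjusted p under 0.05 can thus occur here at a ratio of 0, which bears on the call rule itself and so on every call. The adjusted p-values of Npc1 (0.0276), Mvd (0.0324) and Lcat (0.0418) lie above 0.026, so these calls need particular caution. Ratios are the authors' normalized log2 ratios of male over female liver, so that positive values mean higher in male liver.

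Animal cells make cholesterol through the mevalonate pathway. Acetyl-CoA is condensed and reduced to mevalonate, which is turned into isoprenoids and then squalene, the first step committed to sterols, and squalene is closed to lanosterol and trimmed to cholesterol. SREBP2, a membrane-bound transcription factor, drives most of these genes when sterols are low. SCAP escorts it to the Golgi for release, and the INSIG proteins hold SCAP back in the endoplasmic reticulum when sterols are high. Oxysterols, which form when sterols are plentiful, activate the liver X receptors, which turn on efflux genes such as Abca1. The liver is a main site of this synthesis and also secretes, takes up and excretes cholesterol.

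Levels of the 27 genes differed little between the sexes. Of the 27, 4 were called in the authors' deposited table (14.8%), against 17.4% of the 13763 genes compared between the sexes and 17.2% of the 9737 liver-expressed genes among those. The share of members called was thus near the background. Stard4 and Npc1, which encode proteins that move cholesterol inside the cell, were higher in male liver, where 7.21% of compared genes were called in that direction. Mvd, an enzyme gene of the mevalonate pathway, and Lcat, the gene of the plasma enzyme that esterifies cholesterol on lipoproteins, were higher in female liver (background 10.2%). None of the 27 passed an adjusted p under 0.01 in the authors' deposited table, and the same stricter rule called 10.2% of compared genes. The highest normalized fold of either direction was 1.41, for Mvd. An absolute log2 ratio above that of Mvd was found for 17.0% of liver-expressed genes.

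By size, the ratios of the 27 members ran from -0.50 to 0.45 on the log2 scale. Their median was 0.06, beside -0.02 for all compared genes and -0.004 for liver-expressed genes. The median absolute log2 ratio was 0.17 for members and 0.20 for liver-expressed genes, and 17 members had ratios above 0 and 10 below. Where the plain difference of the log2 RPKM values was taken instead of the normalized ratio, the members' median was 0.12 and that of all compared genes 0.004.

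**Figure D1:**
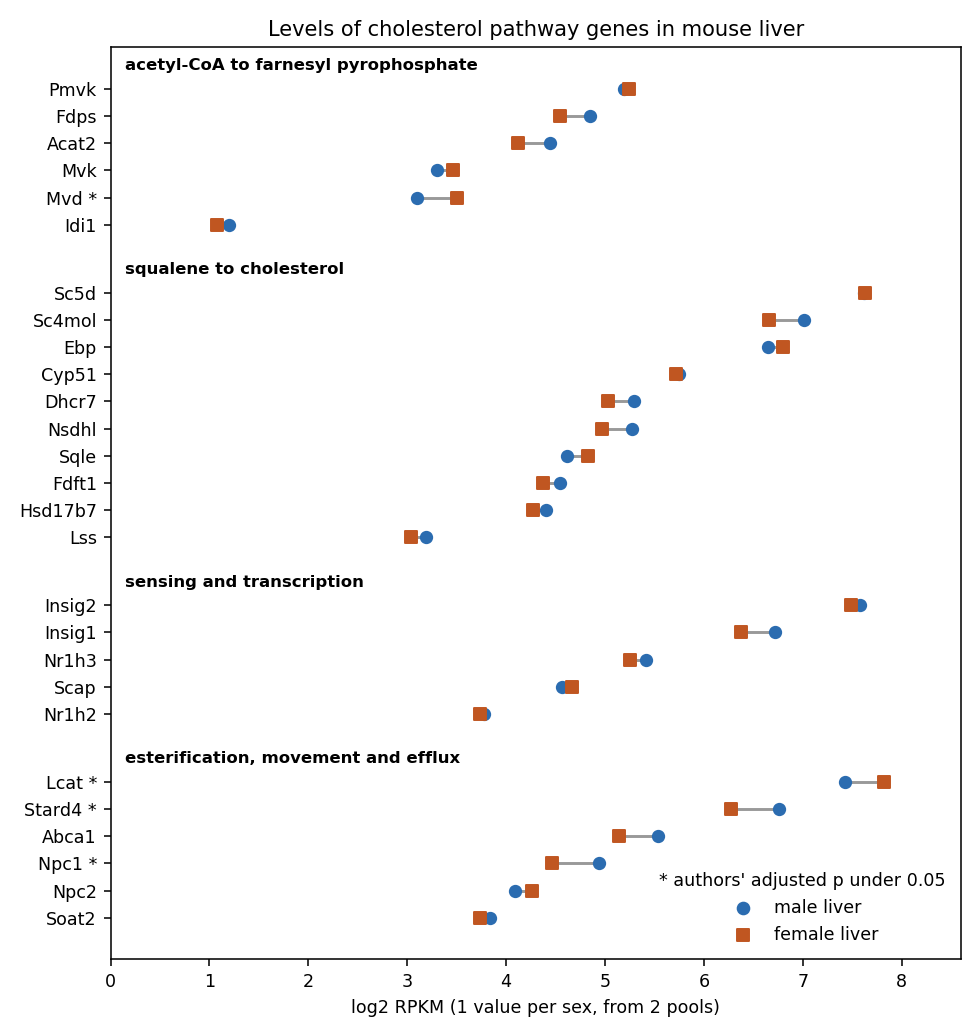
Levels of the 27 matched genes, by role, as log2 RPKM in male liver (blue circles) and female liver (orange squares); each point is 1 value per sex made by the authors from 2 pools, so no error bar can be drawn, and a line joins the sexes of a gene. Male and female points lie within 0.48 of each other for every gene, while levels between genes span from 1.08 for Idi1 to 7.83 for Lcat.

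Promoters give a feature of these genes that the choice of members did not use. The 250 bases before the annotated start were read from RefSeq promoters (GRCm38.p6, a later build than the mm9 coordinates of the table), which held 24 of the 30 genes, all but Fdps, Fdft1, Sqle, Soat2, Stard4 and Npc1. The CCAAT box (CCAAT or its complement ATTGG, either strand), the letters bound by NF-Y, a common partner of SREBP, occurred in 19 of these 24 genes (79.2%) and in 37.5% of all 27025 genes with a promoter. A GC box (GGGCGG, either strand), the letters bound by Sp1, occurred in 20 of 24 (83.3%), beside 35.4% of all genes. The E-box CACGTG was found in 6 of 24 genes (25.0%) and in 6.86% of all genes. A core of the sterol regulatory element (TCACNCCAC, either strand) was found in 1 of the 24, Hmgcs1, which has no level here, and in 1.22% of all genes. Among the 21 genes that also have levels here, 16 had a CCAAT box and 17 a GC box. The shares of all genes include genes not expressed in liver, and a share for liver-expressed genes was not computed. Whether the contrast is particular to this pathway was therefore not tested. None of these motifs shares its letters with another of the set, and genes with several starts count once if any window matched. A match is a description of the letters only, and the lack of a match to these exact letters in this window does not show that an element is absent.

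The promoters of Mvd and Lcat are given as those of the called members with an entry, and that of Msmo1 (Sc4mol) as that of the synthesis enzyme gene with the highest ratio toward male liver. Each line runs 5′ to 3′ on the strand of the gene and ends at the base before the start site, with CCAAT boxes of either strand in capitals. All 3 lie on the minus strand, Mvd at chr8:122443423-122443672, Lcat at chr8:105943403-105943652 and Msmo1 at chr8:64733579-64733828 (GRCm38.p6).
Mvd: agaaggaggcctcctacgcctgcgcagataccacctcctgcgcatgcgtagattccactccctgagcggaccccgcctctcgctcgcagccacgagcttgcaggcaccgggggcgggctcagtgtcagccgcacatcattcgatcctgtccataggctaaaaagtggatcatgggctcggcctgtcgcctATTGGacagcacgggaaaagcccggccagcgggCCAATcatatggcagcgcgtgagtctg
Lcat: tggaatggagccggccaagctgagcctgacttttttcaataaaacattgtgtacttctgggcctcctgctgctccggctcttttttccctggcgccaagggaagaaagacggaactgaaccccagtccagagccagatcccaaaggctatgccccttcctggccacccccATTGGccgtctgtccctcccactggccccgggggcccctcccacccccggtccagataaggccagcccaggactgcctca
Msmo1: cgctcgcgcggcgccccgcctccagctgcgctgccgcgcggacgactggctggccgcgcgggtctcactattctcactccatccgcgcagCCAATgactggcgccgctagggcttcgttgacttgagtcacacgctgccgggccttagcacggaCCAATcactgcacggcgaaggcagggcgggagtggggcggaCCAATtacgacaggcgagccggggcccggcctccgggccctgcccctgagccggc
The box starts lie 60 and 27 bases before the start site in Mvd, 80 bases before it in Lcat, and 160, 96 and 55 bases before it in Msmo1. Mvd and Lcat had ratios below 0 and Msmo1, which was not called, had a ratio above 0. The called male-higher members, Stard4 and Npc1, have no promoter here. With a CCAAT box in 19 of the 24 genes, its presence in these 3 says nothing about the direction of a ratio.

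The first role group holds the enzymes from acetyl-CoA to farnesyl pyrophosphate, of which 6 of 7 had values. Mvd encodes mevalonate diphosphate decarboxylase, which makes isopentenyl diphosphate (mm9, chr8:124957496-124967322, minus strand). Its level was 3.101 log2 RPKM in male and 3.50 in female liver. The authors' deposited table puts it 1.41-fold higher in females (log2 ratio -0.50, adjusted p = 0.0324). These levels stand for about 168 implied reads in male and 291 in female liver. By reads alone the female level was 1.32 times the male level, with an exact 95% interval from 1.09 to 1.61 that covers counting error only. Mvd had the largest absolute normalized ratio of the members, at one of the lower levels of the set, while by plain differences Stard4 (0.48), Npc1 (0.47), Lcat (-0.40) and Abca1 (0.40) matched or exceeded it (-0.40).

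The other 5 genes of this group were not called. Acat2, the cytosolic thiolase that joins acetyl-CoA units, had 4.44 log2 RPKM in male and 4.12 in female liver (log2 ratio 0.25, authors' adjusted p = 0.254). Fdps, farnesyl diphosphate synthase, had 4.84 and 4.54 log2 RPKM (log2 ratio 0.22, adjusted p = 0.316). Both enzymes thus lay on the male side, opposite to Mvd. Mvk and Pmvk, the kinases that act just before Mvd, had log2 ratios of -0.10 and -0.10 and adjusted p-values of 0.797 and 0.621 in the authors' deposited table. Pmvk had the highest level of the group, 5.19 log2 RPKM in male and 5.25 in female liver. Its plain ratio of male over female was 0.961, and counting allows 0.854 to 1.08. Idi1, the isomerase that supplies dimethylallyl diphosphate, had the lowest level of all 27 members, 1.20 log2 RPKM in male and 1.08 in female liver. Its plain ratio was 1.09, and counting error alone allows 0.791 to 1.48, which holds a difference as large as that of Mvd in the direction of male liver. Acat2 has a close copy in the mouse genome, Acat3, and the labels do not say how reads from the copies were assigned.

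From squalene to cholesterol, 10 of 11 genes had values and none was called in the authors' deposited table, beside 17.4% of all compared genes. Their log2 ratios ran from -0.24 to 0.36, 6 above and 4 below 0, with a median of 0.07. Among these 10, Sc4mol, the sterol C4-methyl oxidase gene, had the highest ratio: 7.01 log2 RPKM in male and 6.66 in female liver (log2 ratio 0.36, authors' adjusted p = 0.0576). It lay just short of the threshold, and its male level of 129 RPKM stood beside 101 RPKM in female liver. Ebp, the sterol isomerase gene on the X chromosome, had the lowest ratio (-0.24, adjusted p = 0.201), with 6.64 log2 RPKM in male and 6.80 in female liver. Nsdhl, the C4 decarboxylase gene that works with Sc4mol and also lies on the X chromosome, had 5.27 and 4.97 log2 RPKM (ratio 0.21, adjusted p = 0.314). The 2 X-linked enzyme genes thus had ratios of opposite sign.

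Sc5d, the C5-desaturase gene, had the highest level of the synthesis enzymes and nearly the same one in both sexes, 7.62 log2 RPKM in male and 7.62 in female liver. Its plain ratio was 0.995, with a counting interval from 0.969 to 1.02, the narrowest of the 19 that could be computed. For Cyp51, the lanosterol demethylase gene, the levels were 5.75 and 5.72 log2 RPKM, and the authors' log2 ratio was -0.001. The deposited levels of these 2 genes thus lay within a few percent of each other, but equality is not shown. The spread between pools is unknown, no counting interval was computed for Cyp51, and the normalized log2 ratio of Sc5d was -0.075. Dhcr7, which encodes the reductase of the last step of one branch, had 5.30 log2 RPKM in male and 5.03 in female liver (log2 ratio 0.24, authors' adjusted p = 0.221). Sqle, squalene epoxidase, an early oxygen-dependent and flux-controlling step, had 4.62 and 4.82 log2 RPKM (log2 ratio -0.22, adjusted p = 0.268). Fdft1, squalene synthase, had 4.54 and 4.37 log2 RPKM, with a log2 ratio of 0.13. The Fdft1 entry overlaps the abundant Ctsb (7.10 and 7.42 log2 RPKM) on the opposite strand by 771 bases. Successive enzymes at the entry to sterol synthesis, Fdps, Fdft1, Sqle and Lss, therefore had ratios of 0.22, 0.13, -0.22 and 0.04. Lss, the cyclase that makes lanosterol, had the lowest levels of the group, 3.19 log2 RPKM in male and 3.03 in female liver, and Hsd17b7, a ketoreductase gene, had 4.40 and 4.27.

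On this per-length scale the RNA of the sterol-forming enzymes with values had a higher median level than that of the isoprenoid-forming ones. Hmgcs1 of the earlier group and Tm7sf2 of the later one are missing, and the difference was not tested. The median level was 5.28 log2 RPKM in male and 5.002 in female liver from squalene on, and 3.87 and 3.81 for the earlier group. The ranges overlapped, since Pmvk exceeded 5 log2 RPKM and Lss stayed near 3. Summed over the 16 enzymes with values, RPKM came to 743 in male and 706 in female liver.

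Erg28 is a pathway gene outside the list that was called. Entered in the table under its older symbol and thought to tether enzymes of C4 demethylation, it had 5.55 log2 RPKM in male and 5.93 in female liver, a 1.32-fold difference toward female liver by the authors' deposited table (adjusted p = 0.0478). Its direction was opposite to the ratios of Sc4mol and Nsdhl, which were not called.

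None of the 5 sensing and transcription genes with values was called in the authors' deposited table (background 17.4%), and normalized log2 ratios ran from -0.02 to 0.17. Insig2 was the most abundant, at 7.57 log2 RPKM in male and 7.49 in female liver (log2 ratio 0.06, adjusted p = 0.763). Its paralog Insig1, which is itself a target of SREBP, had 6.72 log2 RPKM in male and 6.38 in female liver. The 2 measures of the Insig1 ratio stood apart: the plain difference of levels was 0.34, while the authors' normalized log2 ratio was 0.17 (adjusted p = 0.374). A gap of that size was found in 0.996% of liver-expressed genes. By reads, the plain ratio of Insig1 was 1.27 with a counting interval from 1.21 to 1.33. Which of the 2 measures is nearer to the true difference cannot be told from the table.

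Scap, the escort of SREBP, had 4.57 log2 RPKM in male and 4.67 in female liver (log2 ratio -0.02, authors' adjusted p = 0.942). Nr1h3, the liver X receptor alpha gene, had 5.41 log2 RPKM in male and 5.26 in female liver (log2 ratio 0.14, adjusted p = 0.488). Nr1h2, the liver X receptor beta gene, had 3.78 and 3.74 log2 RPKM (log2 ratio 0.01, adjusted p = 0.968). The alpha form thus exceeded the beta form in both sexes. Srebf1, the sister gene of the missing Srebf2 and an activator of fatty acid synthesis, was not called either (5.96 and 6.04 log2 RPKM, log2 ratio -0.21, adjusted p = 0.276).

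By the authors' deposited table, 3 of the 6 genes of esterification, movement and efflux were called, beside 17.4% of all compared genes: Stard4 and Npc1 toward male and Lcat toward female liver. Stard4 encodes a soluble carrier that shuttles cholesterol between membranes and is a target of SREBP2 (mm9, chr18:33361075-33373470, minus strand). Its level was 6.76 log2 RPKM in male and 6.28 in female liver, and the authors' deposited table puts it 1.37-fold higher in males (log2 ratio 0.45, adjusted p = 0.0177). About 6188 implied reads in male and 5817 in female liver give a plain ratio of 1.39 with a counting interval from 1.34 to 1.44. Stard4 had the lowest adjusted p of the 27 genes.

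Npc1 encodes the membrane protein that exports cholesterol from lysosomes (mm9, chr18:12348203-12394895, minus strand). It stood at 4.94 log2 RPKM in male and 4.47 in female liver, and the authors' deposited table puts it 1.34-fold higher in males (log2 ratio 0.43, adjusted p = 0.0276). The plain ratio was 1.38, and counting allows 1.29 to 1.48. Its partner Npc2, the soluble protein that hands cholesterol to NPC1, had the opposite sign and was not called: 4.09 log2 RPKM in male and 4.27 in female liver, with a log2 ratio of -0.27 (authors' adjusted p = 0.182). The difference between the ratios of Npc1 and Npc2 was not tested. The Npc1 entry overlaps 3110002H16Rik, on the opposite strand, by 304 bases. That gene was also called toward male liver by the authors' deposited table (log2 ratio 0.49, adjusted p = 0.0464), and the labels do not say whether reads were assigned by strand.

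Lcat encodes the plasma enzyme that esterifies cholesterol on high-density lipoproteins (mm9, chr8:108463452-108467282, minus strand). It had the highest mean level of the 27 genes, with 172 RPKM in male and 227 RPKM in female liver (7.43 and 7.83 on the log2 scale). The authors' deposited table puts it 1.31-fold higher in females (log2 ratio -0.39, adjusted p = 0.0418). No transcript length was at hand for its accession, so no counting interval is given. Soat2, which esterifies cholesterol inside hepatocytes and enterocytes, had 3.84 log2 RPKM in male and 3.74 in female liver (log2 ratio 0.03, adjusted p = 0.939). Of these 2 esterifying enzymes, the secreted one was called and the intracellular one was not, and the difference between them was not tested.

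Abca1, the transporter that loads cholesterol onto apolipoprotein A1, had 5.54 log2 RPKM in male and 5.14 in female liver. It was not called (log2 ratio 0.35, authors' adjusted p = 0.061), although counting error alone is small at a plain ratio of 1.32 (1.27 to 1.37). Abca1, Sc4mol and the 4 called genes made up the 6 members with the largest absolute normalized ratios.

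**Figure D2:**
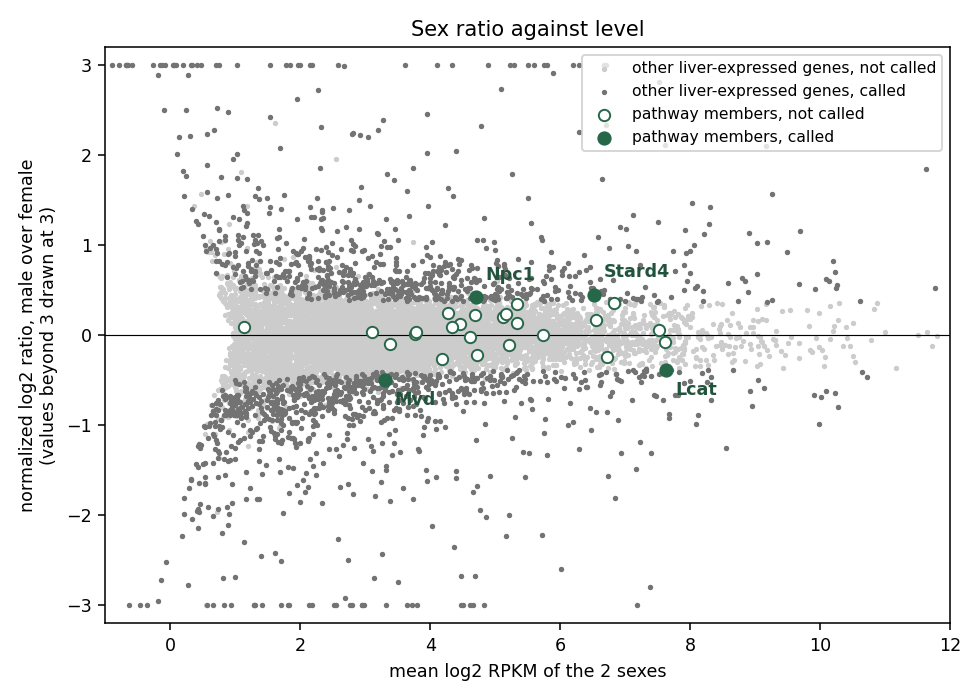
Authors' log2 ratio (male over female, normalized) against the mean log2 RPKM of both sexes, for liver-expressed genes (grey; dark grey where the authors' adjusted p was under 0.05) and for the 27 pathway genes (green, filled where called); ratios beyond 3 are drawn at 3, and each point is 1 gene with no replicate error available. The 4 called members, Mvd, Lcat, Stard4 and Npc1, lie at the inner edge of the called genes, and the other 23 lie inside the uncalled band.

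The precision of the calls can be read from genes of like level. Among 3357 compared genes with a level from 4 up to 8 log2 RPKM in the higher sex, the smallest absolute log2 ratio called in the authors' deposited table was 0.37. Of such genes with an absolute log2 ratio from 0.3 to 0.4, 9.12% were called, beside 81.2% from 0.4 to 0.5 and 98.4% from 0.5 to 1. In this range of levels lay 21 of the 27 members, and 16 of those had an absolute log2 ratio under 0.3, where none of the compared genes was called. At these levels, differences smaller than 0.37 on the log2 scale were therefore not detectable as calls, and the uncalled members are not shown to be equal between the sexes. For 19 members with a transcript length the counting interval of the plain ratio could be computed, and for 13 of them it left out a ratio of 1. The share over all compared genes was not computed, so this count is not shown to be particular to the members. Only 3 of those 13, Mvd, Stard4 and Npc1, were called in the authors' deposited table, and the intervals leave out any difference between pools.

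Other genes of sterol handling were read from a list of 40, of which 37 could be compared. Called in the authors' deposited table were 6 of the 37 (16.2%, beside the background of 17.4%), 3 toward male and 3 toward female liver. An adjusted p under 0.01 was passed by 3 of the 37, beside 10.2% of compared genes. Cyp7b1, the oxysterol hydroxylase of the alternative bile acid pathway, was 9.67-fold higher in male liver, at 8.28 log2 RPKM in male and 5.08 in female liver (authors' adjusted p = 2.19e-56). Abcg8, one part of the transporter that excretes sterols into bile, was 1.71-fold higher in males by the authors' deposited table (4.57 and 3.85 log2 RPKM, adjusted p = 0.000103). Its obligate partner Abcg5 was not called (5.43 and 5.28 log2 RPKM, log2 ratio 0.13, adjusted p = 0.526), and the difference between the partners was not tested. Aacs, which makes acetoacetyl-CoA from ketone bodies for sterol synthesis, was 1.43-fold higher in male liver (4.45 and 3.77 log2 RPKM, adjusted p = 0.0136).

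The female-higher genes of this list were Vldlr, Lipa and Erg28. Vldlr, a lipoprotein receptor of the low-density lipoprotein receptor family, was 2.99-fold higher in females by the authors' deposited table, from -0.06 log2 RPKM in male to 1.51 in female liver (adjusted p = 1.33e-09). Its levels rest on about 41 implied reads in male and 161 in female liver, and counting allows a plain ratio from 2.12 to 4.34. Lipa, the lysosomal lipase that frees cholesterol from its esters upstream of NPC1 and NPC2, was 1.34-fold higher in female liver (6.65 and 7.06 log2 RPKM, authors' adjusted p = 0.0247). Of the lysosomal genes read here, Lipa was thus higher in female and Npc1 in male liver. Ch25h, which makes a regulatory oxysterol, had a level above the floor of the scale in a single sex and no ratio, and Mbtps2 and March6 matched no entry.

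Liver is a mixture of cells, and fewer cells of a type cannot be told apart from less RNA per cell in bulk tissue. Hepatocyte markers were abundant in both sexes, with albumin (Alb) at 14.83 log2 RPKM in male and 15.52 in female liver, and 1 of 6, Alb, was called in the authors' deposited table, higher in female liver. Kupffer cells, the resident macrophages, also handle cholesterol through Abca1, Nr1h3, Npc1, Npc2 and Lipa. Of 11 Kupffer markers 7 were higher in female and 1, Cd163, in male liver, against the background of 17.4% called in either direction. Their RPKM summed to 220 in male and 285 in female liver, and none lay at the floor. Marco was 3.21-fold and Clec4f 1.33-fold higher in females by the authors' deposited table. Of the genes named above, Lipa was called in the same direction as these markers and Npc1 in the other. The uncalled Npc2 had a log2 ratio of -0.27, Abca1 of 0.35 and Nr1h3 of 0.14. Among the other called members, Lcat and Mvd went the same way as these markers and Stard4 the other way. The part of Kupffer cells in these ratios was not tested. Endothelial, stellate, cholangiocyte and lymphocyte markers had 1 of 6, 3 of 6, 1 of 5 and 2 of 5 genes higher in female liver (background 10.2%). The cholangiocyte marker Spp1 was higher in male liver. Only 2 of the 5 cholangiocyte and 1 of the 5 lymphocyte markers were liver-expressed. The call of the lymphocyte marker Nkg7 rests on 0 implied reads in male and 21 in female liver.

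Core clock genes differed between the sexes as well, and the pathway is known to follow the daily feeding rhythm. Of 13 compared clock genes, 8 were called by the authors' deposited table, 5 toward male and 3 toward female liver (background 17.4%). Dbp, an output factor of the clock, stood at 5.21 log2 RPKM in male and 2.70 in female liver, 5.49-fold higher in males by the authors' deposited table (adjusted p = 2.68e-26). Arntl, a clock activator whose RNA peaks at a phase roughly opposite to that of Dbp, stood at 3.08 and 3.87 log2 RPKM, 1.75-fold higher in female liver (authors' adjusted p = 0.000182). The part of daily phase or feeding in the ratios of the pathway was not tested, and time of collection was not given.

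**Figure D3:**
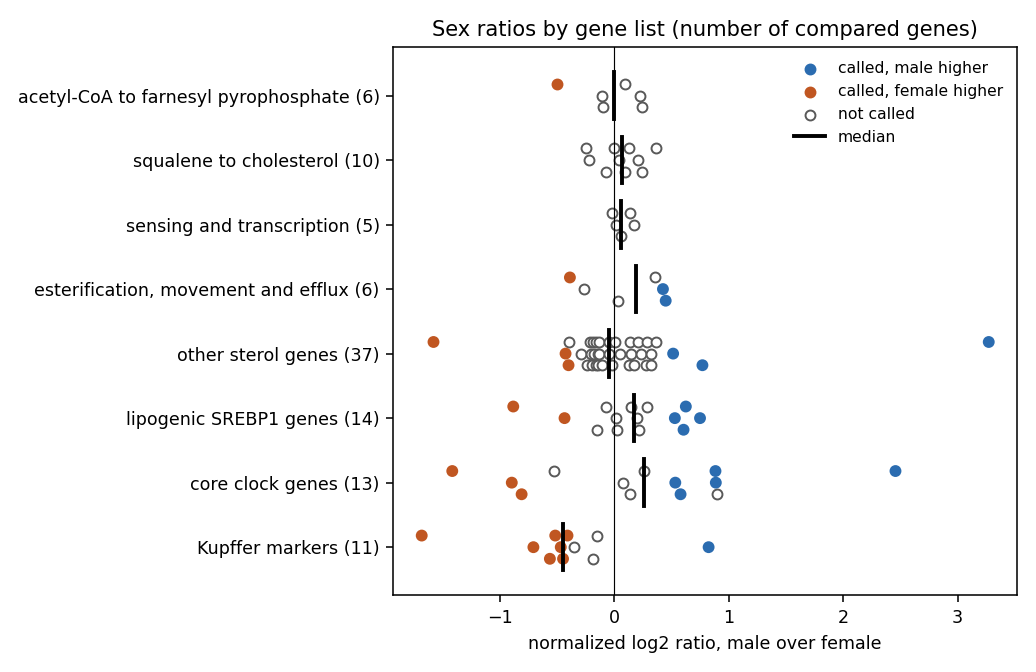
Authors' log2 ratio (male over female, normalized) for the 4 role groups of the pathway and for the side lists, with 1 point per gene, filled where the authors' adjusted p was under 0.05 (blue, male higher; orange, female higher), a black bar at the list median, and the number of compared genes in brackets; points are spread vertically for sight only. Synthesis and sensing genes cluster near 0, with Mvd the single filled point among them, and the median of all liver-expressed genes was also near 0 (-0.004). Filled are 3 of 6 genes of esterification, movement and efflux, 6 of 37 other sterol genes and 6 of 14 lipogenic genes. The same holds for 8 of 13 clock genes and 8 of 11 Kupffer markers, beside 17.4% of all compared genes.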

How the data were processed

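Poly-A-enriched, strand-specific libraries of 2 male and 2 female liver pools were made, per the labels' protocols. The submitters' processing notes name Bowtie, edgeR and mm9, without roles or versions. The deposited table gives, per the file headers, log2 RPKM values per sex, a normalized log2 ratio, a linear ratio, a signed fold change (a score, negative where female liver was higher), an adjusted p-value and a flag for liver-expressed genes. How p-values were adjusted is not stated in the labels. Both pools of a sex share 1 value, so the planned count test and the leaving out of pools could not be run, and the fallback planned with them was used: the authors' adjusted p under 0.05.

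Of 21827 entries, 6590 sat at the lowest value of their scale in male and female liver and 14 had no level. Another 1460 had an authors' log2 ratio of 0 beside levels that differed, and were taken as read in a single sex. This left 13763 compared. The rule does not use reads, and genes such as Nkg7, with 0 implied reads in male liver, stayed among those compared. Taking the value added at that floor as 1 read, 1058 olfactory receptor entries implied 11241814 male and 14719686 female reads. Implied reads used GENCODE vM21 transcript lengths by RefSeq accession. Of 4668 floor genes with a length, 74.2% had an implied length within 2%, so reads are approximate. Exact (Clopper-Pearson) 95% intervals of the ratio of reads cover counting error only and are scaled by implied depth, not by the authors' normalization. The interval code was tested on simulated data. Python 3.11.15, pandas 2.3.3 and scipy 1.17.1 were used. Members and lists were chosen with earlier results of these data known. All members are accounted for by role; called members and the most abundant of each role are given in full, and of other sterol genes those called, with Abcg5 and Srebf1 added after their values were seen. Some genes of the pathway are not reported here.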

Additional observations from a re-analysis of the deposited data

How the results depend on the processing

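The 4 calls among the members rest on the threshold. At an adjusted p under 0.01, 0 of the 27 members were called in the authors' deposited table, beside 10.2% of compared genes. Asking for a fold of at least 1.5 as well had to leave 0, since the highest fold of a member was 1.41. The share of compared genes that pass this fold rule was not computed. Mvd (-0.50), Lcat (-0.39), Stard4 (0.45) and Npc1 (0.43) thus kept their log2 ratios but not their calls under either rule. Unadjusted p-values are not given there, and no other tool could be run. The count of other sterol genes fell from 6 to 3 of 37 at the stricter threshold, beside 10.2% of compared genes. Asking for a log2 RPKM of 1 or more left all 4 members, since all 27 meet it. Where levels were subtracted without the authors' normalization, the median of the members moved from 0.06 to 0.12, the cause was not tested, and 26 of 27 members kept their direction; Cyp51 went from -0.001 to 0.028. No paired analysis was possible because the table does not separate the pools. Leaving out a pool, DESeq2 and other normalizations were not run for the same reason. Of the 19 members with implied reads, Idi1 had the fewest (77 in male liver), and depth was not computed for the others.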

Other observations

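Fatty acid synthesis genes driven by SREBP1, the sister factor of SREBP2, were called in part. By the authors' deposited table this held for 6 of 14, 4 toward male and 2 toward female liver, beside the background of 17.4%. Scd1, the stearoyl-CoA desaturase gene, was 1.54-fold higher in males, at 10.47 log2 RPKM in male and 9.72 in female liver (authors' adjusted p = 0.000788). Me1, malic enzyme, which supplies NADPH for lipid synthesis, was 1.68-fold higher in males by the authors' deposited table (adjusted p = 0.000171). Thrsp and Gpam were the other male-higher genes, and Pnpla3 and Fads1 were higher in female liver. Fasn and Acly, the core enzymes of fatty acid synthesis, were not called (log2 ratios 0.20 and 0.01). The difference between these genes and the cholesterol genes was not tested.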
